A study of Rattus norvegicus with 3 samples.

Results

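Aminoacyl-tRNA synthetases are the enzymes that load each amino acid onto its tRNA, and their transcripts were compared between rat induced pluripotent stem (iPS) cells and cultured adult rat cells. The iPS cells were untreated samples of the line M13, grown on irradiated mouse embryonic fibroblast feeders in medium with serum and serum replacement. The adult RNA, named mix1, was 1 pool that combined cultured bone marrow cells with cultured primary fibroblasts of the ear, both grown in serum-containing media. On each of 3 two-colour arrays an iPS M13 sample carried the dye Cy3 and mix1 carried Cy5, with no dye swap, so dye and cell type cannot be told apart. Strain, age and reprogramming factors are not given in the sources used here, and M13 is a single line.

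The synthetases were taken by gene name or by a probe description holding the words tRNA synthetase. This gave 52 of the 41012 probes on the array, each with 1 spot, of which 31 were found by name and 21 by description only. They stood for 39 of the 35385 genes named on the array, 20 of them cytosolic enzymes (29 probes) and 13 mitochondrial enzymes (17 probes), while 6 genes with 1 probe each could not be placed in either class. The mitochondrial enzymes Cars2, Ears2 and Nars2 carried neither mark and were recognised only through RefSeq names, so they are given separately. In iPS M13 all 33 placed genes gave a signal well above background on every array, and 32 of them did so in mix1 as well. The exception was Lars2, which was above background in mix1 on 2 of 3 arrays.

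Cells hold a pair of translation systems. The cytosolic enzymes serve the ribosomes that read nuclear messages, and 8 of those measured here assemble with the scaffold proteins Aimp1, Aimp2 and Eef1e1 into the multi-synthetase complex. The glycine gene Gars and the lysine gene Kars are known to supply both systems. They were counted as cytosolic here, so the classes are not a clean split. The mitochondrial enzymes are also encoded in the nucleus but charge the tRNAs of the organelle, whose ribosomes make subunits of the respiratory chain. Several cytosolic synthetase genes are textbook targets of ATF4, the transcription factor of the amino acid stress response, which binds with a C/EBP partner at a composite site called CARE in their promoters.

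RefSeq promoters (build GRCr8, windows of 300 bases around the start site) were at hand for 17 of the 20 cytosolic and 11 of the 13 mitochondrial enzymes and for the 3 added ones. The CARE core was searched as TGATGNAA on both strands, a choice made with these results known. It stood in 7 of the 17 cytosolic promoters (Aars, Cars, Iars, Mars, Nars, Tars and Yars), in 0 of the 11 mitochondrial ones and in 0 of the 3 added ones. Of all 33469 promoters of the same length, 3.98% held it. The matches in Mars, Nars, Iars and Tars began between positions -27 and -14 from the start site, and that of Aars shown here at position -112, with a further match after the start site. These 5 stretches show the element in cytosolic enzymes called higher below (Nars and Iars) and in others not called (Mars, Tars and Aars). Each is printed 5′ to 3′ on the gene's strand with the core in capitals. They lie at chr7:65023754-65023813 (minus strand) for Mars, chr18:60275783-60275842 (minus) for Nars, chr17:15193653-15193712 (minus) for Iars, chr2:62114803-62114862 (minus) for Tars and chr19:55908342-55908401 (plus) for Aars.
Mars: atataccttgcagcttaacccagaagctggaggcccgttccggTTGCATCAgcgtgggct
Nars: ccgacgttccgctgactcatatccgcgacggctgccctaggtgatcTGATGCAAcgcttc
Iars: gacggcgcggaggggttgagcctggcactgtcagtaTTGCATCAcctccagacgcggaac
Tars: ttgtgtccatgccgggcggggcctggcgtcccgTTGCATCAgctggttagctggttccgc
Aars: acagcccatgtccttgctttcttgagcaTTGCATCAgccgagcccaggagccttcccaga

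The core read TGATGCAA in Nars and its reverse complement in the other four. The E-box CACGTG, a palindrome known as a MYC-family site, was in 5 of the 17 cytosolic promoters (Aars, Farsb, Iars, Tars and Vars), in 0 of the 11 mitochondrial ones and in Ears2 among the added ones, against 6.42% of all promoters. Aars, Iars and Tars held both motifs, at positions that did not overlap. Such a match describes the letters of a promoter and not binding.

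Signals were background-corrected and normalized within each array, and a gene was called higher or lower when its log2 ratio (iPS M13 over mix1, averaged over the arrays) differed from 0 at an adjusted p under 0.05 (limma, Benjamini-Hochberg over all 20249 genes) and was at least 1 in size, a 2-fold difference. Of all genes 18.7% were called higher and 25.5% lower, and 96.1% passed the adjusted p alone. The 2-fold limit therefore decided nearly every call. Since nothing says that the samples came from separate cultures, the p-values reflect no more than the variation among 3 arrays, which may be technical, and mix1, a single RNA, adds no spread of its own. The ratios of the arrays correlated at 0.997 to 0.998 across genes, and the number of arrays limits the precision. The labelled cell types carried their markers. In iPS M13 6 of 7 measured pluripotency genes were called higher (median log2 ratio 3.07). Called lower were 16 of 16 fibroblast genes (median -7.40) and 13 of 13 marrow and macrophage genes (median -5.42). Of 13 listed pluripotency genes 9 were on the array. A probe could be kept on 1 RNA alone, so some of these markers entered only through the RNA where they were high. With both channels required above background, 5 pluripotency, 14 fibroblast and 10 marrow and macrophage genes remained. In these mixed RNAs fewer cells of a type and less RNA per cell cannot be told apart, and the part of feeder RNA in any ratio was not tested.

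No synthetase was called lower in iPS M13. Among the cytosolic enzymes 6 of 20 were called higher, and among the mitochondrial enzymes 6 of 13, beside the 18.7% of all genes. The cytosolic median log2 ratio was 0.65 (0.65, 0.66 and 0.63 on replicates 1, 2 and 3) and the mitochondrial median 0.99 (0.99, 0.95 and 0.98), against -0.03 for all genes. Cytosolic ratios ran from -0.45 to 1.92 with 4 of 20 below 0, and mitochondrial ratios from -0.12 to 2.58 with 1 of 13 below 0. With Cars2, Ears2 and Nars2 added, 7 of 16 mitochondrial enzymes were called higher and their median was 0.97. In the plot of ratios by array each gene's 3 values lie close together, and the spread between enzymes is far wider than the spread between arrays.

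**Figure D1:**
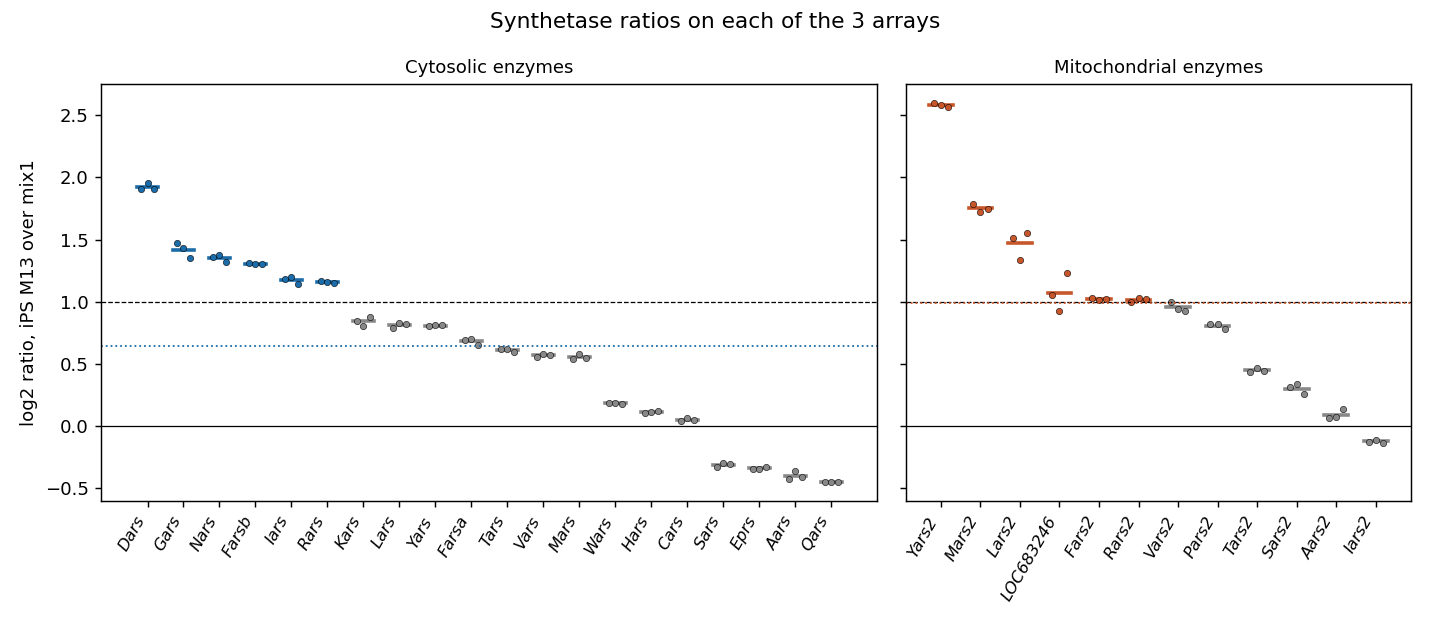
Log2 ratio of iPS M13 over mix1 (y axis) for the named synthetases (x axis, ordered by ratio), cytosolic on the left and mitochondrial on the right. Points are replicates 1 to 3, short lines their mean, coloured where called and grey where not; the dashed line marks 2-fold and the dotted lines the class medians of 0.65 and 0.99. Sars, Eprs, Aars, Qars and Iars2 lie below 0 here and turned positive with median centring.

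The scaling of the dyes set how far the family stood above 0. Centring each array on its median moved the median of all genes by 0.60 on the log2 scale, no within-array normalization by 0.55 and the processed signals of the scanner software by 0.32. Set against the median of all genes, the cytosolic median was 0.67 in the main processing and 0.87, 0.87 and 0.73 under those scalings. The mitochondrial median was 1.01 above all genes in the main processing and 1.19, 1.19 and 1.12 under them. On that relative scale 16 of 20 cytosolic enzymes lay above all genes under each of these scalings, and 12 of 13 mitochondrial enzymes did except with the processed signals, where 13 did. At least 2-fold above the median of all genes were 6 cytosolic and 7 mitochondrial enzymes in the main processing, 7 and 9 with median centring and 6 and 8 with the processed signals. Of all genes, 19.3%, 19.5% and 24.3% lay that far above their own median in these same processings. By the calling rule itself, 25, 24 and 21 of the 33 placed synthetases were higher with median centring, with no within-array normalization and with the processed signals, beside 36.4%, 34.4% and 31.1% of all genes. Lower calls were 17.8%, 18.5% and 23.8% of all genes and 0 synthetases. Before any normalization the iPS M13 signal was the brighter one for every placed synthetase, with 0 of 33 brighter in mix1. The same held for 66.8% of all 20249 genes.

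**Figure D2:**
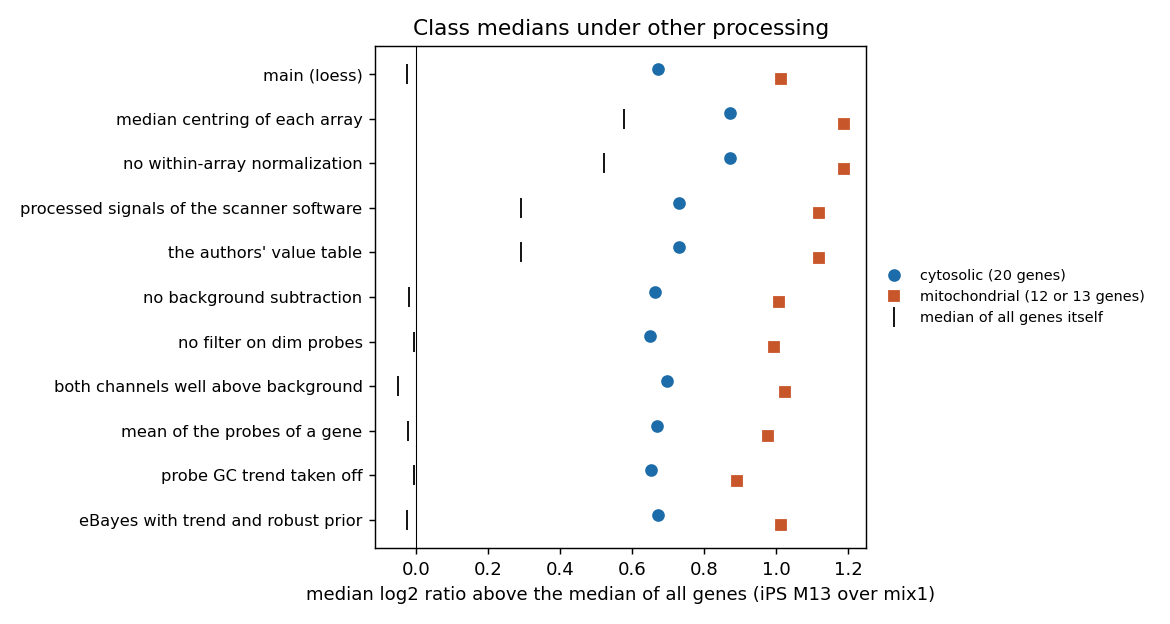
Median log2 ratio of the cytosolic (circles) and mitochondrial (squares) enzymes above the median of all genes (x axis) under each processing (y axis), with the median of all genes itself as a bar. The median of all genes moves between -0.05 and 0.58, while the cytosolic median stays 0.65 to 0.87 above it and the mitochondrial one 0.89 to 1.19.

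Among the cytosolic enzymes the widest difference was that of Dars, the aspartate enzyme. Its normalized log2 signal was 13.58, 13.78 and 13.77 in iPS M13 and 11.67, 11.83 and 11.87 in mix1 on replicates 1, 2 and 3. All iPS M13 values lay above all mix1 values, and Dars rose 3.79-fold (log2 ratio 1.92 ± 0.028, SD, n = 3 arrays, limma adjusted p = 1.7e-06). Gars, the glycine enzyme, had signals of 16.26, 16.37 and 16.11 in iPS M13 against 14.79, 14.93 and 14.77 in mix1. It rose 2.67-fold (log2 ratio 1.42 ± 0.063, limma adjusted p = 1.1e-05), again without overlap. Its other probe, named after an older predicted gene that RefSeq now lists under Gars, had a log2 ratio of 1.15. In rn3 the probes lie apart and on opposite strands, at chr4:84127729-84129820 (minus) for the first and chr4:83816837-83816896 (plus) for the other. The first was taken as Gars by its name on the array and not through RefSeq. Which of the probes reads Gars was not tested.

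Nars, the asparagine enzyme, had signals of 13.68, 13.81 and 13.50 in iPS M13 and 12.32, 12.43 and 12.18 in mix1. The groups did not overlap and Nars rose 2.55-fold on this probe (log2 ratio 1.35 ± 0.028, limma adjusted p = 3.4e-06). Its dimmer probe had a log2 ratio of 0.37, which would not be a call. Farsb, the beta chain of the phenylalanine enzyme, rose 2.47-fold with log2 ratios of 1.31, 1.31 and 1.30 on the 3 arrays. The alpha chain Farsa works in the same tetramer and had log2 ratios of 0.69, 0.70 and 0.65, short of 2-fold. Both chains had their iPS M13 signals above their mix1 signals on every array.

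Iars, the isoleucine enzyme, had signals of 16.04, 16.13 and 15.99 in iPS M13 against 14.86, 14.93 and 14.85 in mix1 and rose 2.26-fold (log2 ratio 1.17 ± 0.031). Rars, the arginine enzyme, had 15.54, 15.65 and 15.60 in iPS M13 against 14.37, 14.49 and 14.45 in mix1 and rose 2.23-fold (log2 ratio 1.16 ± 0.011). Their second probes gave log2 ratios of 1.21 for Iars and 1.23 for Rars, so these calls did not hang on the probe.

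A middle group stood above 0 without reaching 2-fold. The lysine enzyme Kars had a log2 ratio of 0.84, the leucine enzyme Lars 0.81, the tyrosine enzyme Yars 0.81, the threonine enzyme Tars 0.61, the valine enzyme Vars 0.57 and the methionine enzyme Mars 0.56. The tryptophan enzyme Wars (0.18), the histidine enzyme Hars (0.11) and the cysteine enzyme Cars (0.05) lay close to 0 in the main processing. With median centring, where the median of all genes was 0.58, they had 1.04, 0.95 and 0.86. Wars is known as an interferon-induced gene. For Wars the signals were 12.26, 12.39 and 12.35 in iPS M13 and 12.08, 12.21 and 12.18 in mix1, so the groups lay next to each other without overlapping.

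At the lower end were Qars (glutamine), Aars (alanine), Eprs (the enzyme joined for glutamate and proline) and Sars (serine). Qars had signals of 12.73, 12.78 and 12.81 in iPS M13 against 13.17, 13.23 and 13.26 in mix1, with a log2 ratio of -0.45 ± 0.0017 (fold 0.733). Aars had 14.08, 14.35 and 14.18 in iPS M13 against 14.51, 14.71 and 14.59 in mix1, with a log2 ratio of -0.40 ± 0.033. Eprs had a log2 ratio of -0.34 ± 0.011 and Sars -0.31 ± 0.017. None reached 2-fold, and all 4 were positive with median centring and with no within-array normalization. Set against the median of all genes, Aars and Sars lay below it in all 14 settings computed, Qars in 13 and Eprs in 12.

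**Figure D3:**
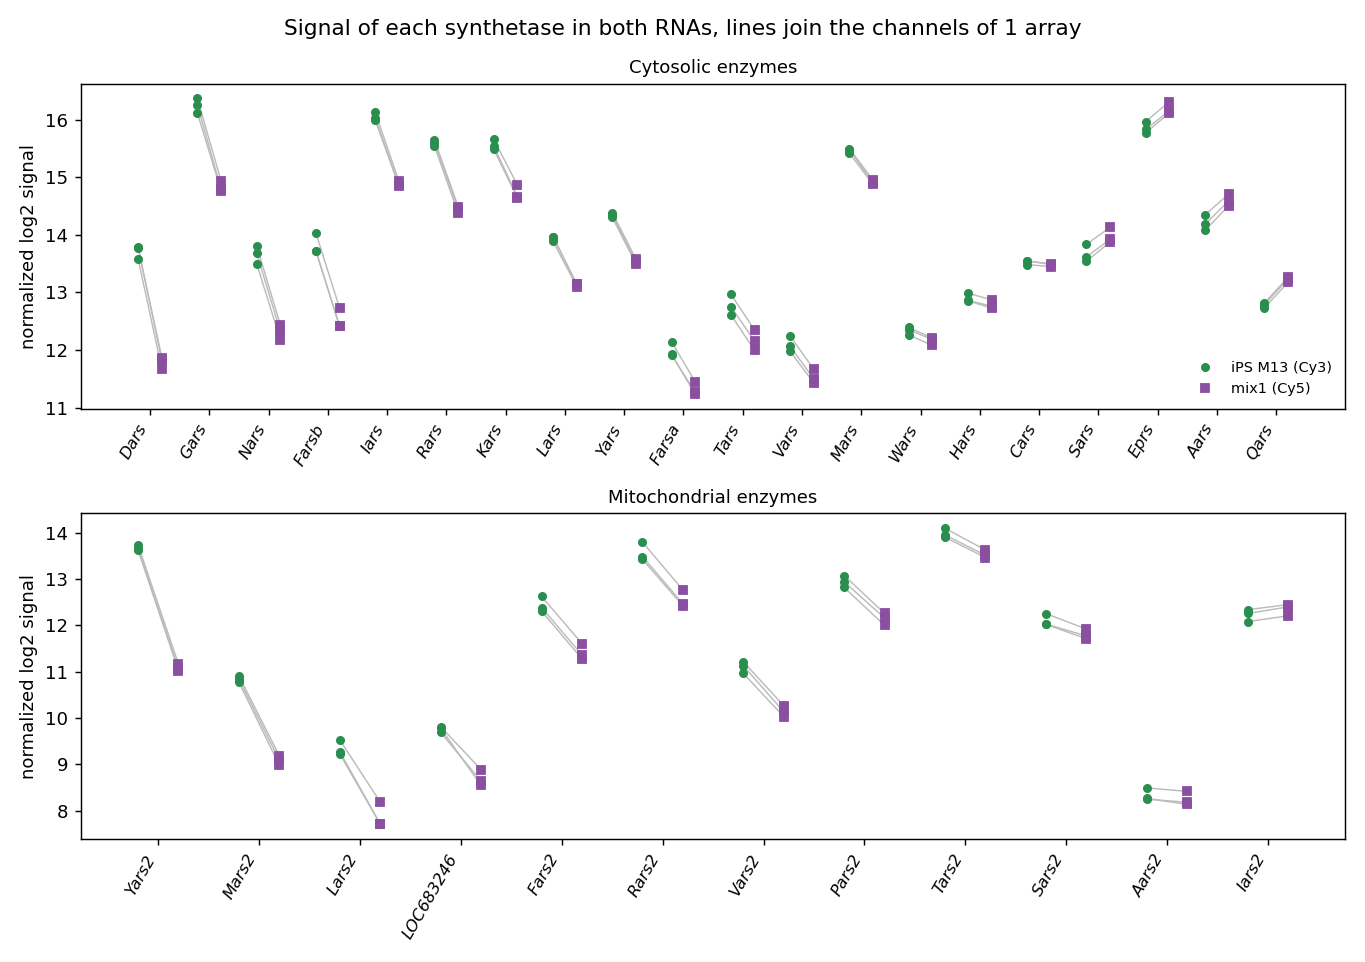
Normalized log2 signal (y axis) of the named synthetases (x axis) in iPS M13 (circles, Cy3) and in mix1 (squares, Cy5), with lines joining the channels of 1 array. The lines climb towards mix1 for Sars, Eprs, Aars, Qars and Iars2, which turned the other way with median centring, and fall for the other genes, and the heights of different genes are not comparable because each rests on its own probe.

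In the mitochondrial class the lead belonged to Yars2, the tyrosine enzyme. Its signal was 13.63, 13.66 and 13.73 in iPS M13 against 11.02, 11.07 and 11.17 in mix1. It rose 5.99-fold (log2 ratio 2.58 ± 0.018, limma adjusted p = 8.7e-07), the highest ratio among the placed synthetases. Mars2, the methionine enzyme, had 10.77, 10.91 and 10.84 in iPS M13 against 8.98, 9.19 and 9.09 in mix1 and rose 3.37-fold (log2 ratio 1.75 ± 0.035, limma adjusted p = 2.6e-06). A second Mars2 probe was above background in iPS M13 on 3 arrays and in mix1 on 0. With a floor under its mix1 signal it was estimated to be 7.63-fold higher in iPS M13. For that estimate the channels were also scaled between arrays (Aquantile). This gave the probe 10.22, 10.16 and 10.26 in iPS M13 and 6.90, 7.35 and 6.84 in mix1. The mix1 value was raised to the dimmest signal still well above background on that array where the probe lay under it. That gave 7.35, 7.35 and 7.14. Probes brighter than this floor can still fail the background mark, so 7.63 is not a strict lower bound.

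Lars2, the leucine enzyme, had signals of 9.23, 9.53 and 9.27 in iPS M13 against 7.71, 8.19 and 7.72 in mix1. It rose 2.77-fold (log2 ratio 1.47 ± 0.12, limma adjusted p = 4.6e-05), with the wider spread of a dim probe. LOC683246, which the array describes as a mitochondrial tryptophan enzyme, had log2 ratios of 1.05, 0.93 and 1.23. Its mean of 1.07 ± 0.15 was a call (limma adjusted p = 0.00027), and without replicate 3 the mean was 0.99 and the call was lost. Fars2 (phenylalanine) and Rars2 (arginine) had log2 ratios of 1.02 each, just inside the limit, and Vars2 (valine) with 0.96 lay just outside. The dimmer probe of Fars2 had 0.63, and on the mean of its probes (0.82) Fars2 lost its call. Altogether 5 placed genes had ratios between 0.9 and 1.1, so small shifts moved the count.

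The remaining mitochondrial enzymes were Pars2 (proline) at a log2 ratio of 0.81, Tars2 (threonine) at 0.45, Sars2 (serine) at 0.30, Aars2 (alanine) at 0.09 and Iars2 (isoleucine) at -0.12. The dimmer probe of Pars2 had 0.19. Iars2 had signals of 12.08, 12.34 and 12.26 in iPS M13 against 12.21, 12.45 and 12.40 in mix1. Its groups overlapped, though its log2 ratios within the arrays were -0.13, -0.11 and -0.14. The mean ratio was positive with median centring (0.73), without within-array normalization (0.67) and with the processed signals (0.30). Of the added enzymes Cars2 (cysteine) was called higher at a log2 ratio of 1.03, a call lost at 0.40 with the trend of probe base composition (described further on) taken off, while Nars2 (asparagine) had 0.59 and Ears2 (glutamate) 0.53.

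The cytosolic median minus the mitochondrial median was -0.34 on the log2 scale (-0.34, -0.28 and -0.36 on the 3 arrays, SD 0.038). The difference had the same sign under every processing tried, from -0.39 to -0.24. An exact sign-flip test over 3 arrays cannot give a p below 0.25, so none is printed. The class difference was not shared by all amino acids. For 11 amino acids both classes had an enzyme chosen by the rule, and the mitochondrial enzyme had the higher ratio in 7 and the cytosolic one in 4.

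Tyrosine showed the widest gap in favour of the mitochondrial enzyme, with a difference of -1.80, -1.77 and -1.75 between Yars and Yars2 on the 3 arrays. Methionine followed at -1.20 ± 0.052 and tryptophan at -0.89 ± 0.16. In the other direction isoleucine stood at 1.30 ± 0.016, since Iars was called higher and Iars2 was at -0.12. Arginine (0.14 ± 0.023) and threonine (0.16 ± 0.016) were nearly even. All 3 arrays gave each of the 11 differences the same sign. With the added enzymes, cysteine stood at -0.98 and asparagine at 0.76.

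**Figure D4:**
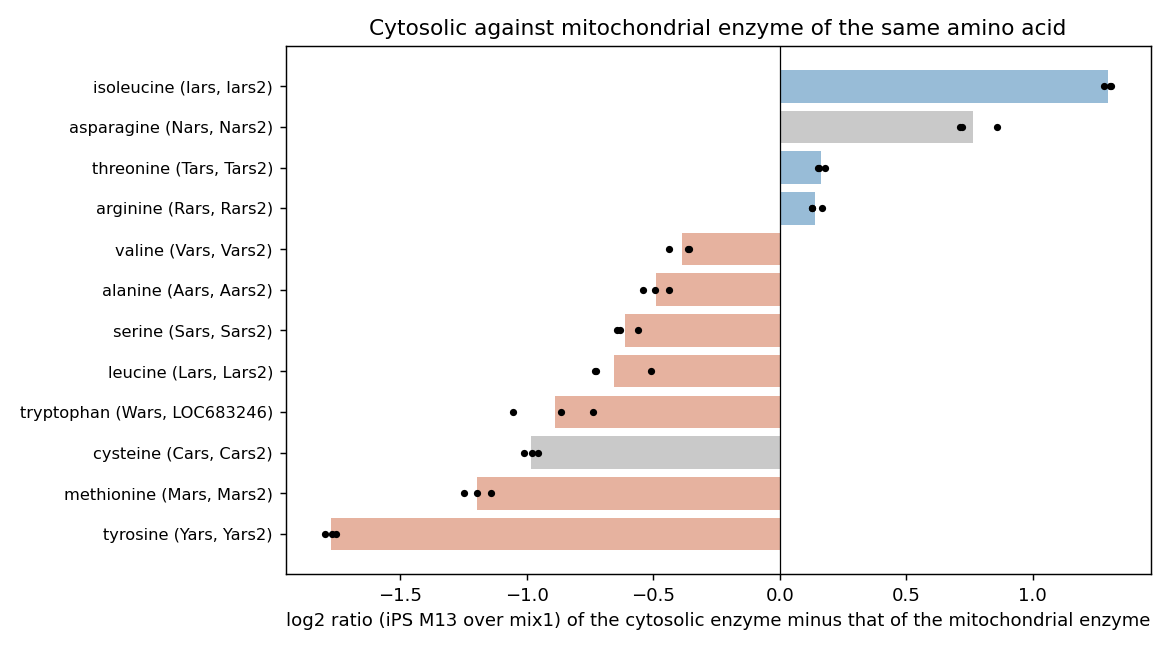
Log2 ratio (iPS M13 over mix1) of the cytosolic enzyme minus that of the mitochondrial enzyme (x axis) for the named amino acids (y axis). Bars are means and points the 3 arrays, with blue for a higher cytosolic ratio, orange for a higher mitochondrial ratio and grey for pairs that use an added enzyme; the bars run from 1.30 for isoleucine to -1.77 for tyrosine.

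Within the cytosolic class the 8 enzymes of the multi-synthetase complex (Eprs, Iars, Lars, Kars, Qars, Mars, Rars and Dars) had a median log2 ratio of 0.83, and 3 were called higher. The 12 enzymes outside it had a median of 0.59, also with 3 called higher, beside 18.7% of all genes. Both groups reached below 0, at -0.45 inside the complex and -0.40 outside. Its 3 scaffold proteins had ratios of 1.35 ± 0.0085 for Eef1e1 and 1.19 ± 0.018 for Aimp1, both called higher (limma adjusted p = 1.9e-06 and 3.1e-06), and 0.87 ± 0.012 for Aimp2.

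The 7 cytosolic enzymes with a CARE core had a median log2 ratio of 0.61 (range -0.40 to 1.35, 2 called higher), and the 10 with a promoter but no core had a median of 0.38 (range -0.45 to 1.31, 1 called higher). With the composition trend described next taken off, the medians were 0.57 for both. In the main processing 18.7% of all genes were called higher. Nars and Aars, both printed above with the core, stood near opposite ends of the class. The 3 enzymes without a promoter sequence here, Dars, Gars and Rars, were all called higher.

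The base composition of the probe moved with the ratio. Across all genes the log2 ratio fell by 0.42 for each 10% more G and C in the probe. Over the 33 placed synthetases Pearson's r between probe composition and ratio was -0.55 and Spearman's rho -0.47, as a description of genes that share the same libraries, arrays and dyes. Of the 10 genes whose probe held at most 40% G and C, 6 were called higher, with a median of 1.02. Of the 15 between 40% and 50%, 6 were called higher, with a median of 0.96. Of the 8 at 50% or more, 0 were called higher, with a median of 0.21. Among all genes 18.7% were called higher, and their shares within these ranges of composition were not computed. The part of composition in any single ratio was not tested.

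Composition was also compared between probes of 1 gene, which differ in position as well, so the pairs do not isolate it. Of 13 placed genes with 2 probes, 12 had probes of unequal composition, and the probe with less G and C had the higher ratio in 9. In 5 of the 13 genes the probes differed by under 0.2, in 2 by over 1, and in 4 only 1 of the probes passed 2-fold. The widest gap was in Eprs, with log2 ratios of 1.38 on a probe of 25% G and C and -0.34 on a probe of 55%. Nars stood at 1.35 (25%) against 0.37 (45%), and Mars2 at 3.18 (21.7%) against 1.75 (46.7%). The first 30 of 60 bases of the probes of Eprs and Nars are shown to make the contrast visible, with G and C in capitals. They lie in build rn3 at chr13:101637287-101637346 and chr13:101637113-101637172 (plus strand) for Eprs, and at chr18:60793193-60793252 and, across an intron, chr18:60800698-60802394 (minus strand) for Nars.
Eprs, 25%: ttCtttttCattttttaaaaCttCtaaaaa
Eprs, 55%: CCtttGCattCCtttCaaCCCtCtGtGtGa
Nars, 25%: CttaGttatGGaGaCGttttattGtattat
Nars, 45%: ttGtCaGatGaCttGtGtCaGtGttaCaat

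The brighter probe stood for each gene, which was the 55% one for Eprs and the 25% one for Nars. Averaging the probes of a gene gave 0.52 for Eprs and 0.86 for Nars. Taking the trend across all genes off gave 0.16 for Eprs, 0.57 for Nars and 1.22 for Dars, whose only probe held 26.7% G and C. With the trend off, where 16.9% of all genes were called higher and 24.7% lower, Dars, Gars, Iars, Rars, Yars2, Mars2, Lars2 and LOC683246 kept their calls, Farsb (0.95), Nars, Fars2 (0.88) and Rars2 (0.88) lost them, and Farsa (1.11) gained one. The class difference was then -0.24, and 9 of the 11 amino acid pairs kept their sign. Valine (0.04) and threonine (-0.55) changed sign. Of the pairs with an added enzyme, asparagine also changed sign (-0.08) and cysteine stood at -0.42.

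**Figure D5:**
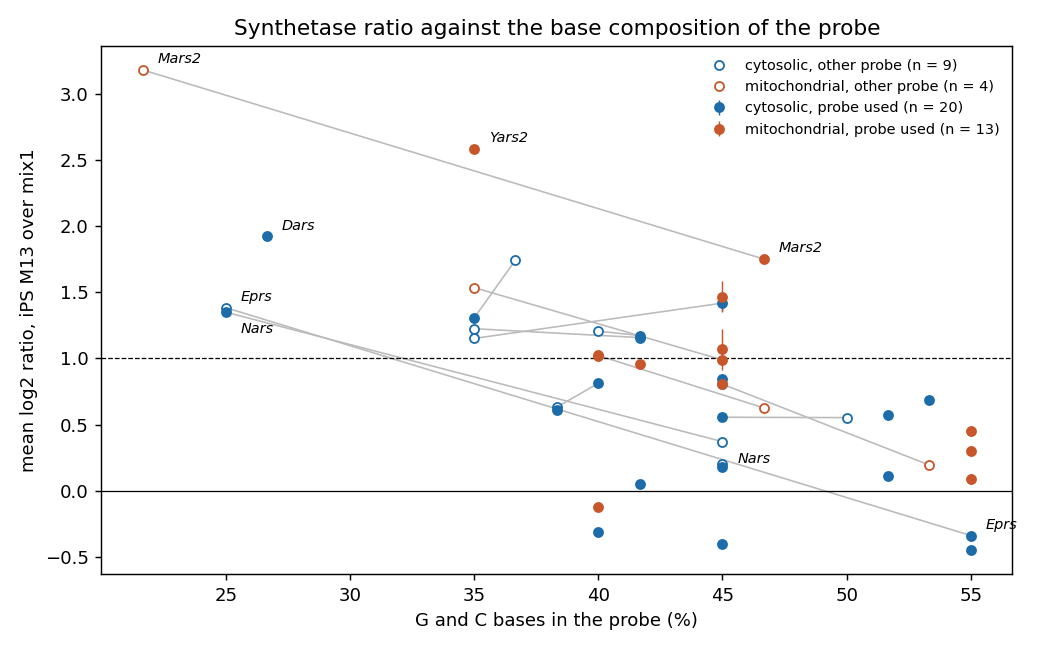
Log2 ratio of iPS M13 over mix1 (y axis, mean of 3 arrays with its SD as bars) against the share of G and C bases in the probe (x axis, %), in blue for cytosolic and orange for mitochondrial enzymes. Filled points are the probes that stand for a gene, open points its other probe, and grey lines join probes of 1 gene; 9 of 12 pairs of unequal composition have the higher ratio on the probe with less G and C, and no gene at 50% or more passes the dashed 2-fold line.

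The 6 unplaced genes were mixed. A transcript known only as TC523218 had a log2 ratio of 1.62 ± 0.024, U30813, described as a pseudogene of the aspartate enzyme, 1.45 ± 0.016, and a probe named Hars2_predicted 1.09 ± 0.031. All 3 were called higher, beside 18.7% of all genes. The array puts Hars2_predicted on chromosome 3 and RefSeq puts Hars2 on another chromosome, so it was not counted as the mitochondrial histidine enzyme. The Qars probe also differs, on 16_random in rn3 against chromosome 8 in RefSeq, but was kept as cytosolic by its gene name. Whether RNA of Dars reached the probe of its pseudogene U30813 was not tested. Tars3, a further threonine enzyme, had a ratio of 0.84 and TC526296 one of 0.36. LOC301003, described as similar to Qars and lying beside it in rn3, had -0.26 against the -0.45 of Qars, and turned positive with median centring (0.56).

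The genes around the synthetases in tRNA metabolism were read from lists chosen with earlier results of these data known. Among 28 measured genes of tRNA maturation and export 14 were called higher and 3 lower, with a median log2 ratio of 1.01, beside 18.7% of all genes called higher and 25.5% lower. With median centring 23 were called higher and 0 lower, and with no within-array normalization 22 and 0. Of all genes 36.4% and 34.4% were called higher and 17.8% and 18.5% lower under these scalings. With the probe composition trend taken off 15 were called higher and 0 lower. They included Trmt6 (2.95) and Trmt61a (1.65), the partner subunits of the enzyme that methylates adenosine in the tRNA body, the CCA-adding enzyme Trnt1 (2.23), the pseudouridine synthase Pus7 (2.09), the cytosine methyltransferase Nsun2 (2.02) and the tRNA exporter Xpot (1.31). Those called lower, named after their values were seen, were Tsen34 (-1.43), a subunit of the splicing endonuclease, Hsd17b10 (-1.26), a subunit of mitochondrial RNase P, and the guanosine methyltransferase Trmt1 (-1.05). Among 10 genes of tRNA editing and of indirect charging in mitochondria only Qrsl1, a subunit of the amidotransferase that makes glutaminyl-tRNA, was called higher (1.03), with a median of 0.61 and 0 called lower. On the mean of its probes Qrsl1 had 0.92 and its call was lost. With median centring, with no within-array normalization and with the processed signals, 6 of the 10 were called higher. Of all genes 36.4%, 34.4% and 31.1% were called higher under these scalings.

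The elongation factors of translation, which include those that carry charged tRNA to the ribosome, went both ways. Of 8 measured elongation factors, the mitochondrial factor Tufm was called higher (1.01), and the cytosolic Eef1a1 (-1.24) and Eef1g (-1.24) were called lower. The median was 0.25, and of all genes 18.7% were called higher and 25.5% lower. The lower calls depended on the scaling: Eef1a1 had -0.94 with median centring and -0.85 with the processed signals, and Eef1g lay just short of 2-fold with median centring and at -0.73 with the processed signals, so that 0 of 8 were called lower under both. With no within-array normalization Eef1g kept its call at -1.06 and Eef1a1, just short of 2-fold, lost its own. Eef1g also lost its call on the mean of its probes (-0.58) and with the composition trend off (-0.96). Higher calls were 4 of 8 with median centring, beside 36.4% of all genes.

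Genes of the amino acid stress response went both ways. Of 33 measured ATF4 targets 8 were called higher and 17 lower, with a median log2 ratio of -1.04, beside 18.7% and 25.5% of all genes. Some of these targets entered only through mix1, where they were high. With both channels required above background 29 of the 33 remained, 8 of them called higher and 14 lower. With median centring and with no within-array normalization 11 were called higher and 13 lower. Of all genes 36.4% and 34.4% were called higher and 17.8% and 18.5% lower under these scalings. With the composition trend off 5 targets were called higher and 16 lower, beside 16.9% and 24.7% of all genes. Asns at 0.98 was among the calls then lost. Higher in the main processing were the amino acid transporter Slc7a3 (4.09) and asparagine synthetase Asns (1.19). Also higher, and named after their values were seen, were the transporters Slc7a1 (2.32) and Slc1a5 (1.12) and the mitochondrial folate enzyme Mthfd2 (1.30). So were the serine synthesis enzymes Psat1 (1.85), Phgdh (1.48) and Psph (1.01). The probes of Psph, Mthfd2 and Slc1a5 held 25%, 28.3% and 35% G and C. The part of composition in their ratios was not tested. Lower were Nupr1 (-6.10), a stress-induced chromatin protein, Chac1 (-4.38), which degrades glutathione, the transcription factor Atf5 (-4.29), the growth factor Vegfa (-3.67), the pseudokinase Trib3 (-3.04) and the transcription factor Ddit3 (-2.53).

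Atf4 itself had log2 ratios of -0.71, -0.79 and -0.79 and was not called. The kinases that start the response were Eif2ak3, which senses stress in the endoplasmic reticulum, at -0.68, and Eif2ak4, which senses uncharged tRNA, at 0.66. Neither was called, and Eif2ak3 turned to 0.09 with median centring. Of the 14 measured regulators 2 were called higher, the initiation factor subunits Eif2b3 (1.18) and Eif2s1 (1.02), and 0 lower. Of all genes 18.7% were called higher and 25.5% lower. With median centring 7 of the 14 were called higher, beside 36.4% of all genes. Eif2s1 lost its call at 0.88 with the composition trend off.

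The interferon-induced genes, the set in which Wars is known, had a median log2 ratio of -2.92 over 17 measured genes, with 14 called lower and 1 higher, beside 25.5% and 18.7% of all genes. Called lower were the transcription factors Irf1 (-1.45 ± 0.014) and Irf7 (-2.21), and Ifi35 (-2.85) and Isg15 (-1.30). With median centring 12 were called lower, beside 17.8% of all genes, and Irf1 (-0.97) and Isg15 (-0.80) lost their calls. With no within-array normalization Isg15 (-0.86) did so, and with the composition trend off Irf1 (-0.96) and Isg15 (-0.88) did. When only probes above background in both channels were tested, 7 of the 17 remained and 5 of them were called lower. The 1 gene called higher, named after its value was seen, was Oasl (1.79). Wars at 0.18 was not among the genes called in either direction in the main processing. With median centring Wars was called higher at 1.04, beside 36.4% of all genes. It stood at 0.98 with no within-array normalization and at 0.59 with the processed signals, short of a call.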

How the data were processed

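Two-colour array files of 3 iPS M13 samples against mix1 were used. Spot intensities were deposited as scanned by Agilent Feature Extraction (version 9.5.3.1, per the file headers), with processed intensities and log10 ratios of Cy5 over Cy3 beside them. The authors' deposited value table holds log2 values; against the log10 ratios its columns had slopes of -3.32, so it was read as log2 of Cy3 over Cy5, and whether the columns were centred is unknown (medians -0.0413, -0.0282 and -0.0286). Probe positions are those of build rn3, per the file headers. All arrays lay on 1 slide with 1 scan date.

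The normexp method (offset 50) was applied to mean intensities with median local background, and signals were normalized by loess within each array in limma 3.58.1 (R 4.3.3), with control spots at weight 0. Outlier spots (205, 263 and 192) were left out. A probe stayed in, as did 24178 of 41012, when iPS M13, or mix1, or both were well above background on each of the arrays, and the brightest stood for its gene. Ratios were fitted with lmFit and eBayes (1.55 prior degrees of freedom), tested on simulated data first. For 263 probes with 10 spots the median SD between arrays was 0.0279, against 0.0207 from spot noise alone. Saturated was 1 spot, of no synthetase.

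Names were updated through RefSeq: an accession matched 10735 probes (a further accession 48), a symbol 5572, a synonym 3730 and a gene ID 1934, while 18993 have the file's name only. The array's Vars2 is RefSeq's Vars1 and is called Vars here, and its Vars2l is Vars2. Promoter sequences are RefSeq's. Python 3.11.15, pandas 2.3.3, numpy 2.4.6 and matplotlib 3.10.9 were used. The synthetases are named, except that some items are not reported here. From each other list the scaffold genes, up to 5 genes with the largest ratio among those called and measured in both RNAs, and Atf4, Asns, Ddit3, Trib3, Eif2ak3, Eif2ak4, Irf1, Eef1a1, Tufm, Xpot and Trnt1 are named. The members and lists were chosen with earlier results of these data known. Other scalings, filters, probe summaries, a composition correction and each array left out were tried.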

Additional observations from a re-analysis of the deposited data

How the results depend on the processing

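Of 33 placed synthetases, 6 of the 12 called higher (Dars, Gars, Iars, Rars, Yars2 and Mars2) were called under all 13 alternatives and Lars2 under the 12 that tested it, and 0 were called lower under any. Median centring gave 25 calls higher (14 cytosolic, 11 mitochondrial) beside 7366 of all genes, with medians of 1.45 (cytosolic) and 1.77 (mitochondrial). No within-array normalization gave 24 (13 and 11) beside 6975, with medians of 1.39 and 1.71. The processed signals gave 21 (12 cytosolic) beside 6290 and the values deposited by the authors also 21 (12 cytosolic) beside 6297, both with medians of 1.02 and 1.41 and a class difference of -0.39. The median of all genes was 0.58, 0.52, 0.29 and 0.29 under these 4. The mitochondrial median was 0.96 with the mean of a gene's probes and 0.89 with the probe composition trend taken off, where the class difference was -0.24. Without replicate 1, 2 and 3 in turn the cytosolic median was 0.64, 0.64 and 0.66, and the mitochondrial median was 0.99 each time. The placed synthetases called higher were then 12, 12 and 11, and LOC683246 without replicate 3 was the only one to lose its call. Each of these fits shares its arrays with the main one, so a small shift is no independent check.

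Signs turned for genes that were not called. With median centring the log2 ratios were 0.30 for Aars, 0.13 for Eprs, 0.39 for Qars, 0.47 for Sars, 0.73 for Iars2, 0.56 for LOC301003 and 0.092 for Eif2ak3. With no within-array normalization they were 0.25, 0.070, 0.33, 0.41, 0.67, 0.51 and 0.036. With the processed signals and with the authors' value table they were 0.30 for Iars2 and 0.090 for LOC301003. Eprs had 0.52 on the mean of its probes, and with the composition trend off Cars had -0.021, Eprs 0.16, Qars 0.046 and LOC301003 0.096. The cause was not tested. Each ratio paired iPS M13 with mix1 on the same array and was tested against 0. Mix1 was 1 RNA and all samples form 1 group, so no other pairing was possible. Signal over background limits Lars2, LOC683246 and Aars2, whose probes were dim.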
